A study of Macaca mulatta with 4 samples.

Results

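TFAP2A, TFAP2B, TFAP2C, GATA2, GATA3, ISL1, HAND1, CDX2, TP63 and VTCN1 are genes used to recognise amnion, trophectoderm and surface ectoderm in primate embryos and stem cell models. They were taken from a table of 23697 rhesus monkey genes by their symbols. Of the 10 genes, 9 were measured, and HAND1 was not analysed here. RNA was sequenced from rhesus monkey (Macaca mulatta) diploid neural progenitor cells (NPCs), labelled with embryonic day E3.5, haploid embryonic stem cells (ESCs), labelled E2.5, and diploid ESCs, labelled E3.5. Haploid cells carry a single set of chromosomes, NPCs divide and give rise to neurons and glia, and the labels give all of them the embryo as tissue and differentiation in vitro as source. The series is about haploid NPCs as a system for mutation screens, and its haploid NPC sample was not analysed here. Each group held 1 library, so no test was made, the spread between replicates is unknown, and neighbouring levels in an order of libraries cannot be said to differ.

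The first tissue set aside in a primate embryo is the trophectoderm, which contributes to the placenta; the amnion grows later from the epiblast and encloses the amniotic cavity. The surface ectoderm, which forms the epidermis, arises beside the neural plate, and BMP signalling is known to favour amnion and surface ectoderm over neural tissue. These fates share transcription factors: the AP-2 factors (TFAP2 genes) and GATA2 and GATA3 act in all of them, CDX2 in trophectoderm, ISL1 and HAND1 in primate amnion, and TP63 in basal cells of the epidermis. VTCN1 encodes a cell surface protein that restrains T cells and is used as a marker of amnion and trophoblast. Several of the genes also have roles in the nervous system, TFAP2A and TFAP2B in neural crest, GATA2 and GATA3 in inhibitory neurons and ISL1 in motor neurons.

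The libraries carried the markers that their labels call for. Summed over POU5F1, NANOG, LIN28A, DPPA4 and L1TD1, ESC markers stood at 2.97 FPKM in diploid NPCs, 1987 FPKM in haploid ESCs and 2591 FPKM in diploid ESCs. FPKM counts fragments per kilobase of a gene's transcript relative to library size, so levels of different genes can be set side by side. Summed over SOX1, PAX6, FABP7, NES and ZIC1, NPC markers stood at 717 FPKM in diploid NPCs, 273 FPKM in haploid ESCs and 254 FPKM in diploid ESCs. NES did not separate the groups, at 280, 266 and 253 FPKM in the same order, and made up most of both ESC sums. SOX1, an early neural gene, stood at 18.2 FPKM in diploid NPCs, 0.14 FPKM in haploid ESCs and 0.09 FPKM in diploid ESCs. PAX6 stood at 3.68, 0.26 and 0.26 FPKM. The neuron gene TUBB3 was also high in diploid NPCs, at 245 FPKM, beside 20.8 and 25.9 FPKM in haploid and diploid ESCs. The steps between low values put the depth of the diploid NPC library at 78.7% and that of the haploid ESC library at 95.3% of the diploid ESC depth. The number of reads behind a low value is unknown, with read totals not given in the sources used here.

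Most of the 9 genes were low or near 0 in the stem cells and in the progenitors. In diploid NPCs 3 of them stood at 1 FPKM or more (TFAP2B, GATA2 and TFAP2C), in haploid ESCs 2 and in diploid ESCs 2 (TFAP2C and VTCN1 in both). Of all genes in the table, 59.2% stood at 1 FPKM or more in diploid NPCs, 55.5% in haploid ESCs and 57.9% in diploid ESCs. The median of the 9 genes was 0.19 FPKM in diploid NPCs, 0.16 FPKM in haploid ESCs and 0.21 FPKM in diploid ESCs, beside 2.25, 1.79 and 2.06 FPKM over all genes in the same order of libraries. Their summed level was 7.42 FPKM in diploid NPCs, 12.25 FPKM in haploid ESCs and 21.77 FPKM in diploid ESCs. TFAP2C and VTCN1 made up most of the sum in both ESC libraries, and TFAP2B most of it in NPCs.

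**Figure D1:**
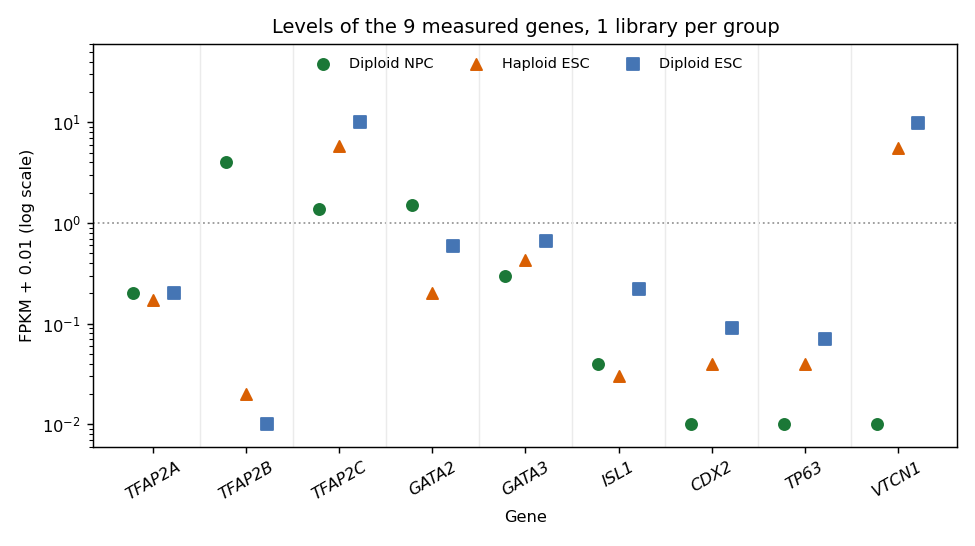
FPKM of each of the 9 measured genes on a log scale, with 0.01 added so that values of 0 can be drawn, and 1 point per library (diploid NPC, haploid ESC, diploid ESC); the dotted line marks 1 FPKM. TFAP2B and GATA2 are highest in diploid NPCs, TFAP2C and VTCN1 are highest in diploid ESCs, and TFAP2A lies between 0.16 and 0.19 FPKM in the 3 libraries.

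Set against the other genes of the same library, TFAP2C and VTCN1 were above the middle in ESCs. In diploid ESCs 71.4% of genes had a lower level than TFAP2C and 71.1% a lower level than VTCN1. In haploid ESCs these shares were 62.7% for TFAP2C and 62% for VTCN1. In diploid NPCs the highest of the 9 genes was TFAP2B, with 57.5% of genes lower, followed by GATA2 with 45.3% and TFAP2C with 44.2%.

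**Figure D2:**
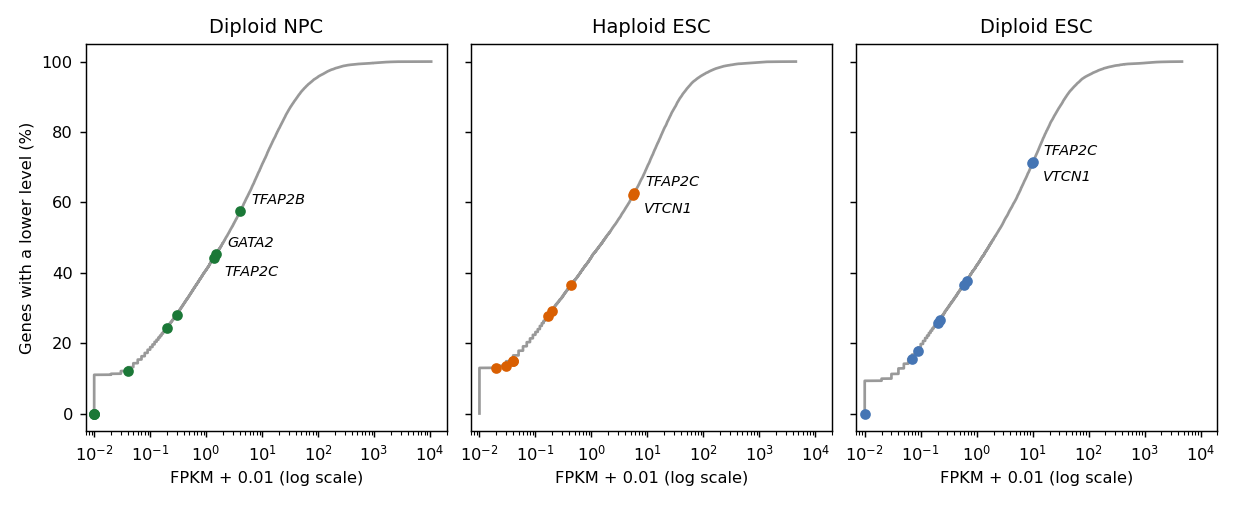
Share of all 23697 genes with a lower level (vertical axis, percent) against FPKM plus 0.01 on a log scale, in diploid NPCs, haploid ESCs and diploid ESCs; the grey line is all genes, the points are the 9 measured genes and those at 1 FPKM or more are named. TFAP2C and VTCN1 lie side by side in both ESC libraries, and the other points lie at 37.7% or lower there.

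Diploid NPCs were set against diploid ESCs to see what differs between the progenitors and the stem cells. TFAP2B was higher in NPCs, TFAP2C and VTCN1 were lower, and the other 6 genes stood at 1.5 FPKM or less in every library. Genes were counted where the ratio of FPKM plus 1 was at least 4-fold, a log2 ratio of 2. By this measure 1 of the 9 genes was higher in NPCs, beside 5.06% of all 23697 genes, and 2 were lower, beside 3.73%. The median log2 ratio was -0.11 for the 9 genes and 0.01 for all genes. On this scale a gene needs 3 FPKM in some library to pass 4-fold even against a value of 0, so the 6 low genes could not be counted whatever their ratio.

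Haploid were set against diploid ESCs to see what differs with ploidy. None of the 9 genes reached 4-fold in either direction, beside 0.637% of all genes higher in haploid ESCs and 1.54% lower. The level was lower in haploid ESCs for 8 of the 9 genes. TFAP2B was the other, at 0.01 FPKM in haploid ESCs while diploid ESCs were listed at 0. Of the 8, all but TFAP2C and VTCN1 differed by little, between -0.03 FPKM (TFAP2A and TP63) and -0.39 FPKM (GATA2). With the reads behind such low values unknown, their counting error cannot be given. The 9 genes had a median log2 ratio of -0.22, beside 0.00 over all genes. Of all genes, 11508 were lower and 10682 higher in haploid ESCs. Rescaling each library to a sum of 1000000 shifted the log2 ratios in this comparison by a median of 0.20. That median was taken over the 14474 genes averaging 1 FPKM or more across the 3 libraries, not over all genes. The 8 genes stayed lower under this rescaling. The 2 ploidies also carry different embryonic days in their labels, so ploidy and day cannot be told apart.

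Between diploid NPCs and haploid ESCs, 1 of the 9 genes was at least 4-fold higher in NPCs, TFAP2B, beside 7.07% of all genes, and 1 was at least 4-fold lower, VTCN1, beside 4.83%. TFAP2C had a log2 ratio of -1.54 here, short of 4-fold with 1 FPKM added and past it, at -2.03, with 0.1 FPKM added. The 3 comparisons share libraries and are not independent of each other.

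Among the AP-2 factors, which bind DNA as dimers, the most abundant paralog differed between the cell types. TFAP2C (NCBI gene 705384), which acts in trophectoderm and in primordial germ cells, stood at 1.36 FPKM in diploid NPCs, 5.85 FPKM in haploid ESCs and 10.09 FPKM in diploid ESCs. It was low in NPCs and highest in diploid ESCs, with haploid ESCs between them. Its FPKM was 7.42-fold lower in diploid NPCs than in diploid ESCs, a log2 ratio of FPKM plus 1 of -2.23. In haploid ESCs it was 1.72-fold lower than in diploid ESCs, a log2 ratio of -0.70. In bulk RNA of this kind, fewer cells that express a gene and less RNA per cell cannot be told apart.

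TFAP2B (NCBI gene 707679), known for neural crest, kidney and some neurons of the dorsal neural tube, stood at 4.05 FPKM in diploid NPCs and 0.01 FPKM in haploid ESCs, and was listed at 0 in diploid ESCs. It was thus near 0 in both ESC libraries and present in NPCs, with a log2 ratio of 2.32 against haploid ESCs. TFAP2A (NCBI gene 700663), which directs surface ectoderm and neural crest, stood at 0.19 FPKM in diploid NPCs, 0.16 FPKM in haploid ESCs and 0.19 FPKM in diploid ESCs, near 0 in all of them. An uncharacterised gene, LOC100426950, overlaps TFAP2A in the T2T-MMU8v2.0 annotation and was listed at 0 in all 3 libraries. Other genes that overlap TFAP2A, GATA2, GATA3 and TP63 there have no value in these data. Their part in the levels of these members was not tested.

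TFAP2E, the fourth measured AP-2 gene, stood at 0.14 FPKM in diploid NPCs, 0.04 FPKM in haploid ESCs and 0.14 FPKM in diploid ESCs. Summed over the 4 measured AP-2 genes, the level was 5.74 FPKM in diploid NPCs, 6.06 FPKM in haploid ESCs and 10.42 FPKM in diploid ESCs. TFAP2B made up 70.6% of that sum in diploid NPCs, 0.165% in haploid ESCs and 0% in diploid ESCs. TFAP2C made up 23.7% in diploid NPCs, 96.5% in haploid ESCs and 96.8% in diploid ESCs. The leading AP-2 gene was thus TFAP2B in NPCs and TFAP2C in both ESC libraries, under any scaling, since these shares are taken within a library.

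Of the 5 other measured genes listed with the AP-2 family, which were its coactivators, its KCTD inhibitors and TFAP2E, 1 was at least 4-fold higher in diploid NPCs than in diploid ESCs and none was lower, with a median log2 ratio of 0.00. That gene was CITED1, a coactivator of AP-2 factors, at 26.6 FPKM in diploid NPCs, 2.78 FPKM in haploid ESCs and 2.64 FPKM in diploid ESCs. CITED2, its better expressed relative in ESCs, stood at 26.5 FPKM in diploid NPCs, 46.2 FPKM in haploid ESCs and 29.4 FPKM in diploid ESCs. KCTD15, which inhibits AP-2 activity, stood at 8 FPKM in diploid NPCs, 18.4 FPKM in haploid ESCs and 13.9 FPKM in diploid ESCs. KCTD1, a relative with the same activity, stood at 4.07 FPKM in diploid NPCs, 1.23 FPKM in haploid ESCs and 1.53 FPKM in diploid ESCs. None of the 5 reached 4-fold between haploid and diploid ESCs. The shares of all genes past 4-fold that stand beside this list and the later ones are those given above. Against diploid ESCs they were 5.06% higher and 3.73% lower in diploid NPCs, and 0.637% higher and 1.54% lower in haploid ESCs.

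**Figure D3:**
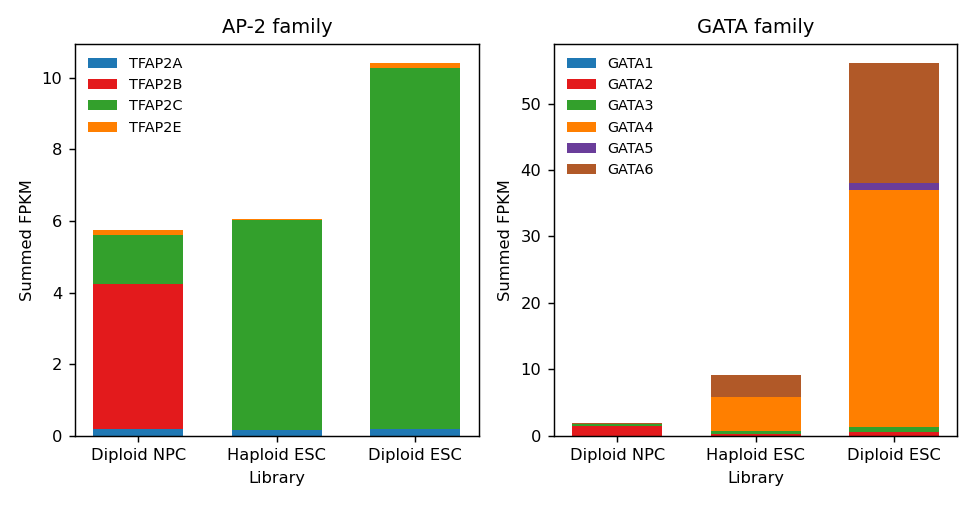
FPKM of the 4 measured AP-2 genes (left) and the 6 GATA genes (right), stacked to their sum, in diploid NPCs, haploid ESCs and diploid ESCs, with 1 library each. TFAP2B makes up 70.6% of the AP-2 sum in NPCs and TFAP2C over 96% of it in both ESC libraries; GATA4 and GATA6 make up most of the GATA sum in ESCs and GATA2 most of it in NPCs.

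GATA2 and GATA3, zinc finger factors of trophoblast and blood, were both low. GATA2 (NCBI gene 705551) stood at 1.5 FPKM in diploid NPCs, 0.19 FPKM in haploid ESCs and 0.58 FPKM in diploid ESCs. Its level in NPCs was 2.59-fold that in diploid ESCs and 7.89-fold that in haploid ESCs. The log2 ratio of NPCs to haploid ESCs was 1.07 with 1 FPKM added and 2.46 with 0.1 FPKM added, an example of how far the added value compresses the ratios of low genes. GATA3 (NCBI gene 713840) stood at 0.29 FPKM in diploid NPCs, 0.42 FPKM in haploid ESCs and 0.65 FPKM in diploid ESCs, and was highest in diploid ESCs.

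The GATA genes that carried most of the family's RNA in ESCs were the endoderm factors, not the trophoblast ones. GATA4 stood at 0.02 FPKM in diploid NPCs, 5.16 FPKM in haploid ESCs and 35.8 FPKM in diploid ESCs, and GATA6 at 0.05, 3.27 and 18.1 FPKM in the same order. Summed over GATA1 to GATA6, the level was 1.86 FPKM in diploid NPCs, 9.08 FPKM in haploid ESCs and 56.16 FPKM in diploid ESCs. GATA2 made up 80.6% of the sum in diploid NPCs, 2.09% in haploid ESCs and 1.03% in diploid ESCs. The 5 endoderm markers SOX17, FOXA2, GATA6, GATA4 and HHEX together stood at 12.5 FPKM in diploid NPCs, 9.19 FPKM in haploid ESCs and 188 FPKM in diploid ESCs. In diploid NPCs the sum was mostly HHEX, at 11.3 FPKM, with SOX17 listed at 0. In haploid ESCs HHEX stood at 0.36 FPKM and the sum was mostly GATA4 and GATA6. The part of cells with endoderm markers in the levels of TFAP2C, VTCN1 and GATA3, which were also highest in diploid ESCs, was not tested.

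Of the 8 other genes of the GATA list, 2 were at least 4-fold lower in diploid NPCs than in diploid ESCs, GATA4 and GATA6, and none higher; the median log2 ratio was -0.52. The same 2 also passed 4-fold, being lower in haploid than in diploid ESCs, with a median of -1. ZFPM1, a cofactor that binds GATA proteins, stood at 7.28 FPKM in diploid NPCs, 1.54 FPKM in haploid ESCs and 4.09 FPKM in diploid ESCs. LMO2, a bridging partner of GATA and TAL1 in blood, stood at 1.73 FPKM in diploid NPCs, 1.13 FPKM in haploid ESCs and 6.07 FPKM in diploid ESCs.

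The homeodomain and p63 members were near 0. ISL1 (NCBI gene 705894), a LIM homeodomain factor of motor neurons, heart progenitors and primate amnion, stood at 0.03 FPKM in diploid NPCs, 0.02 FPKM in haploid ESCs and 0.21 FPKM in diploid ESCs. CDX2 (NCBI gene 711094), the caudal homeodomain factor of trophectoderm, was listed at 0 in diploid NPCs and stood at 0.03 FPKM in haploid ESCs and 0.08 FPKM in diploid ESCs. TP63 (NCBI gene 703997), the p53 relative of basal epidermis, was listed at 0 in diploid NPCs and stood at 0.03 FPKM in haploid ESCs and 0.06 FPKM in diploid ESCs. All 3 were highest in diploid ESCs. With the reads behind these values unknown, their counting error cannot be given. The table lists 6 transcripts for TP63 under a single value, so its isoforms cannot be told apart.

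Of 12 measured relatives and partners of ISL1, CDX2, TP63, VTCN1 and HAND1, 1 was at least 4-fold lower in diploid NPCs than in diploid ESCs and none higher; the median log2 ratio was -0.36. That gene was CDX4, a caudal factor of the posterior embryo, which was listed at 0 in diploid NPCs and stood at 17.2 FPKM in haploid ESCs and 5.59 FPKM in diploid ESCs. CDX4 was thus the expressed caudal gene in ESCs, where CDX1 and CDX2 did not exceed 0.2 FPKM. LMO4 and LDB2, which take part in LIM protein complexes, stood at 14.9 and 7.28 FPKM in diploid NPCs, 69 and 32.9 FPKM in haploid ESCs and 41.3 and 20.8 FPKM in diploid ESCs. None of the 12 reached 4-fold between haploid and diploid ESCs, where the median was 0.06.

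VTCN1 (NCBI gene 714123) was listed at 0 in diploid NPCs and stood at 5.54 FPKM in haploid ESCs and 9.91 FPKM in diploid ESCs. The gene was thus present in both ESC libraries and read as 0 in the progenitors, so no fold is given for NPCs. Its FPKM was 1.79-fold lower in haploid than in diploid ESCs, a log2 ratio of -0.74, close to the -0.70 of TFAP2C.

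The genes whose pattern lay nearest to the 3 members with a mean of at least 1 FPKM were found by Euclidean distance between log2 values of FPKM plus 1 over the 3 libraries. Nearest to TFAP2B were HOXA9, at 3.85 FPKM in diploid NPCs, 0.02 FPKM in haploid ESCs and 0.04 FPKM in diploid ESCs, and HOXB5, at 3.62, 0.05 and 0.02 FPKM. These are HOX genes of the posterior body axis. Nearest to TFAP2C were the mechanosensitive channel gene PIEZO1, at a distance of 0.16, and the collagen gene COL4A6, at 0.18. Nearest to VTCN1 were PCED1B, at a distance of 0.27, and DPPA2, a gene of pluripotent cells and the germ line, at 0.31, with 0.07 FPKM in diploid NPCs, 4.85 FPKM in haploid ESCs and 11.96 FPKM in diploid ESCs. With 3 libraries such nearness is common: 50 genes lay within a distance of 0.5 of TFAP2B, 19 of TFAP2C and 9 of VTCN1.

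Other amnion genes went both ways. Of 14 measured amnion genes beside the 9, 2 were at least 4-fold higher and 3 at least 4-fold lower in diploid NPCs than in diploid ESCs, with a median log2 ratio of -0.09. The higher ones, IGFBP5, a binding protein of insulin-like growth factors, and POSTN, a matrix protein, stood at 137 and 45.1 FPKM in diploid NPCs, 0.91 and 9.59 FPKM in haploid ESCs and 4.04 and 1.27 FPKM in diploid ESCs. Both genes are also made by other tissues. The lower ones were the keratin gene KRT7, the receptor gene CCKBR and the ligand gene BMP4. GABRP, a receptor subunit gene used to mark amnion, was listed at 0 in diploid NPCs, at 0.04 FPKM in haploid ESCs and at 0 in diploid ESCs.

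Between haploid and diploid ESCs, 1 of the 14 amnion genes was at least 4-fold higher in haploid cells, POSTN, and 2 were lower, KRT7 and CCKBR, with a median of 0.01. KRT7 stood at 0.19 FPKM in diploid NPCs, 0.34 FPKM in haploid ESCs and 10.8 FPKM in diploid ESCs. CCKBR was listed at 0 in diploid NPCs and stood at 0.76 FPKM in haploid ESCs and 13.1 FPKM in diploid ESCs. BMP4 stood at 0.13 FPKM in diploid NPCs, 18.4 FPKM in haploid ESCs and 5.26 FPKM in diploid ESCs.

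In both ESC libraries the most abundant trophoblast genes were keratins of simple epithelia, KRT8 and KRT18, and in diploid NPCs the nuclear receptor gene NR2F2. Of 23 measured trophoblast genes beside the 9, 6 were at least 4-fold lower in diploid NPCs than in diploid ESCs and 1, NR2F2, was higher; the median log2 ratio was -0.21. KRT8 stood at 16.9 FPKM in diploid NPCs, 173 FPKM in haploid ESCs and 436 FPKM in diploid ESCs, and KRT18 at 9.94, 95.3 and 358 FPKM. Both keratins have many processed copies in primate genomes, so their values are uncertain. NR2F2 stood at 41.3 FPKM in diploid NPCs, 3 FPKM in haploid ESCs and 2.46 FPKM in diploid ESCs.

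The other trophoblast genes differed widely in level, and those given here were chosen after their values were seen. CYP11A1, the enzyme that starts steroid hormone synthesis, was listed at 0 in diploid NPCs and stood at 1.69 FPKM in haploid ESCs and 9.35 FPKM in diploid ESCs. CGA, GCM1 and ELF5, a hormone subunit gene and factors of placental cells, did not exceed 0.84 FPKM in any library. PEG10, an imprinted gene of placenta, stood at 2.15 FPKM in diploid NPCs, 28.9 FPKM in haploid ESCs and 11 FPKM in diploid ESCs. The placental growth factor gene PGF stood at 0.72 FPKM in diploid NPCs, 2.61 FPKM in haploid ESCs and 4.82 FPKM in diploid ESCs. In all, 9 of the 23 genes had a mean below 1 FPKM. Between haploid and diploid ESCs 2 of the 23 were at least 4-fold lower in haploid cells, KRT7 and KRT19, and none was higher, with a median of -0.07. KRT19 stood at 8.52 FPKM in diploid NPCs, 2.71 FPKM in haploid ESCs and 81.9 FPKM in diploid ESCs.

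**Figure D4:**
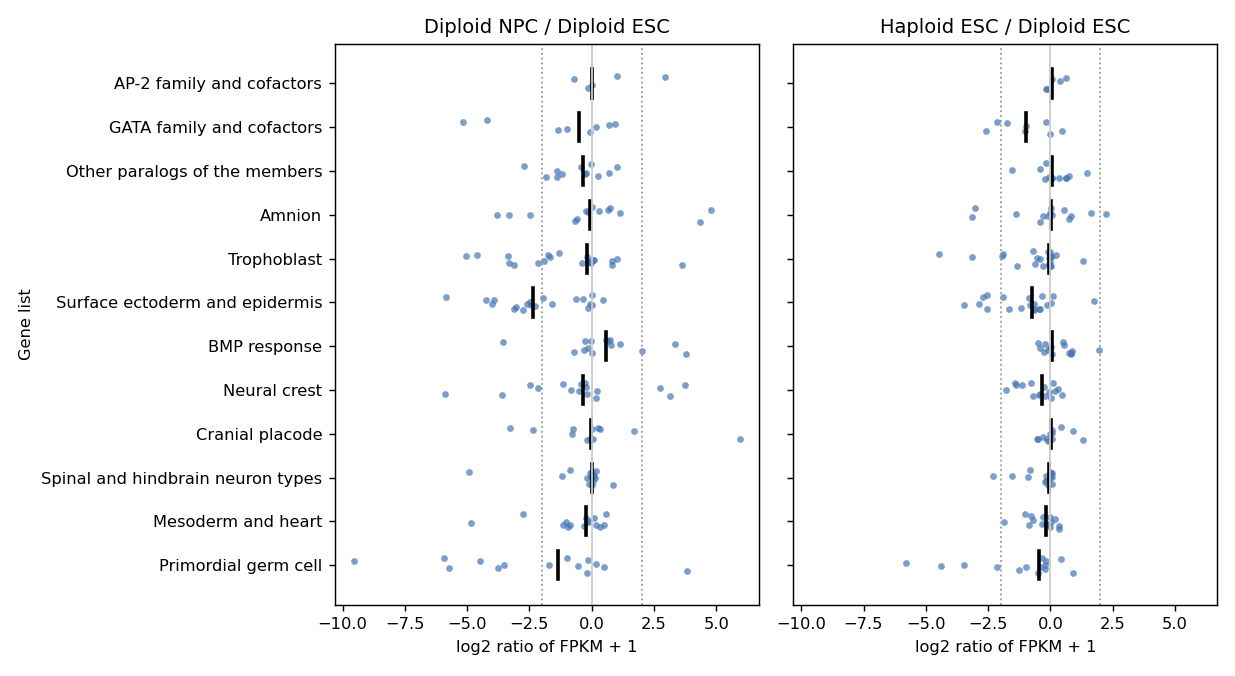
Log2 ratios of FPKM plus 1 for the measured genes of 12 lists, without the 10 genes of the report, in diploid NPCs over diploid ESCs (left) and haploid over diploid ESCs (right); each point is a gene, black bars are list medians and dotted lines mark 4-fold. The surface ectoderm and epidermis list has the lowest median in the left panel, at -2.35, and 11 of its 20 genes lie below the lower line.

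Of 20 measured surface ectoderm and epidermis genes beside the 9, 11 were at least 4-fold lower in diploid NPCs than in diploid ESCs, beside 3.73% of all genes, none was at least 4-fold higher and the other 9 did not pass. The median log2 ratio was -2.35, beside 0.01 for all genes. The list was chosen with earlier results of these data known and holds genes of epithelia in general, EPCAM and DSP among the 11. The count is therefore not particular to surface ectoderm. CDH1, the epithelial cadherin, was among those that did not pass, at 23.6 FPKM in diploid NPCs, 1.5 FPKM in haploid ESCs and 17.1 FPKM in diploid ESCs. EPCAM, an epithelial adhesion gene, stood at 1.65 FPKM in diploid NPCs, 22.2 FPKM in haploid ESCs and 150 FPKM in diploid ESCs. The desmosome gene DSP stood at 0.87 FPKM in diploid NPCs, 21.5 FPKM in haploid ESCs and 34.5 FPKM in diploid ESCs. GRHL2 and GRHL3, grainyhead factors of surface epithelia, stood at 0.12 and 0.2 FPKM in diploid NPCs, 1 and 0.81 FPKM in haploid ESCs and 6.57 and 4.77 FPKM in diploid ESCs.

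Keratinocyte keratins were near 0 everywhere, as TP63 was. KRT5, KRT15 and KRT17 did not exceed 0.34 FPKM in any library. The list median between haploid and diploid ESCs was -0.73, beside 0.00 for all genes. There, beside 1.54% of all genes, 5 of the 20 passed 4-fold, all of them lower in haploid cells. Among them were OVOL1 and OVOL2, zinc finger factors of epithelia, at 1.29 FPKM and listed at 0 in diploid NPCs, at 0.2 and 0.52 FPKM in haploid ESCs and at 6 and 7.83 FPKM in diploid ESCs. Set against haploid ESCs, NPCs had 7 of the 20 lower by 4-fold or more, beside 4.83% of all genes. Only 1, CDH1, was higher, beside 7.07% of all genes, and the list median was -0.60.

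BMP target genes were measured because BMP signals induce the AP-2, GATA and ISL1 genes in amnion. Of 15 measured targets and antagonists, 3 were at least 4-fold higher in diploid NPCs than in diploid ESCs, ID2, ID3 and SMAD9, and 1 was lower, SMAD7, with a median log2 ratio of 0.56. ID2 stood at 151 FPKM in diploid NPCs, 41.8 FPKM in haploid ESCs and 10.2 FPKM in diploid ESCs, and ID3 at 212, 34.7 and 20.1 FPKM. SMAD7 went the other way, at 2.85, 31.4 and 45.1 FPKM in the same order, and the other 11 genes did not pass 4-fold. Between haploid and diploid ESCs none of the 15 reached 4-fold and the median was 0.06. MSX1, DLX3 and DLX5, targets that mark surface ectoderm and its border, did not exceed 0.38 FPKM in any library, while MSX2, a relative of MSX1, stood at 1.92 FPKM in diploid NPCs, 1.58 FPKM in haploid ESCs and 0.75 FPKM in diploid ESCs.

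Neural crest and neuron genes were examined because TFAP2B, GATA2 and ISL1 also act there. Of 16 measured neural crest genes, 3 were at least 4-fold higher in diploid NPCs than in diploid ESCs, PAX3, ZIC1 and EDNRB. Another 4 were at least 4-fold lower, FOXD3, TWIST1, ETS1 and ERBB3, and the median log2 ratio was -0.34. PAX3, a factor of the dorsal neural tube and neural crest, stood at 6.31 FPKM in diploid NPCs, 0.18 FPKM in haploid ESCs and 0.1 FPKM in diploid ESCs. EDNRB, an endothelin receptor, stood at 10.2 FPKM in diploid NPCs, 0.24 FPKM in haploid ESCs and 0.28 FPKM in diploid ESCs. SOX10, the defining factor of migrating crest, was at 0.03 FPKM in diploid NPCs, 0.02 FPKM in haploid ESCs and 0.38 FPKM in diploid ESCs. FOXD3 was listed at 0 in diploid NPCs and stood at 16.2 FPKM in haploid ESCs and 58.4 FPKM in diploid ESCs. The part of neural crest cells in the TFAP2B level was not tested. Between haploid and diploid ESCs none of the 16 reached 4-fold, and the median was -0.34.

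Of 17 measured genes of spinal and hindbrain neuron types, 16 had a mean below 1 FPKM. The other, LHX1, was at least 4-fold lower in NPCs, at 0.09 FPKM in diploid NPCs, 5.78 FPKM in haploid ESCs and 32.2 FPKM in diploid ESCs. The list median was 0.00 in NPCs and -0.04 in haploid ESCs, both against diploid ESCs. FOXN4 and TAL1, which act with GATA2 in inhibitory interneurons, stood at 1.04 and 0.42 FPKM in diploid NPCs, 0 and 0.12 FPKM in haploid ESCs and 0.12 and 0.26 FPKM in diploid ESCs. The motor neuron genes MNX1 and LHX3, partners of ISL1 in that lineage, were both listed at 0 in diploid NPCs.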

How the data were processed

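Per the labels' protocols, RNA was extracted with Trizol, sequenced on the BGISEQ-500 platform, mapped with up to 2 mismatches to the UCSC rhesus assembly named Rhesus8 and counted per gene by featureCounts with its defaults, keeping genes with over 10 summed reads. Per the submitters' processing notes the aligner was STAR 2.4. The values the authors deposited are FPKM, with their derivation from counts not given in the sources used here. No strand setting is stated, so reads of overlapping or antisense genes may be mixed.

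Columns were matched to samples by the description that starts their names. 3 columns matched; 1 further column matched no sample and stayed out of every step. The filters therefore rest on 3 libraries. Log2 ratios are of FPKM plus 1, computed over all 23697 genes. 14474 genes had a mean of at least 1 FPKM, among them 3 of the 9 members, TFAP2B only through its NPC value. Members past 4-fold are given out of all 9, and these counts are the same with and without the filter; the alternatives keep the filter unless stated.

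The members and 12 gene lists were chosen with earlier results of these data known. Of 168 list genes, 160 were found by symbol or by the T2T-MMU8v2.0 name of their gene ID. From each list, genes with the largest ratios were named (up to 4 a comparison), and others where a list's exceptions or defining markers are given, after their values were seen. The values of 1 list gene are not reported here. The planned promoter and protein comparisons were not run. Alternatives were an added 0.1 FPKM, no filter, a minimum mean of 5 FPKM, rescaling to a sum of 1000000 or by median ratios, and thresholds of 2-fold and 8-fold. Scripts were tested on simulated data. Python 3.11.15, numpy 2.4.6, pandas 2.3.3 and matplotlib 3.10.9 were used.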

Additional observations from a re-analysis of the deposited data

How the results depend on the processing

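No paired analysis was possible because each group held 1 library. Of the recomputed counts of members past the threshold, 42 stayed within 1.5 times the count given and 12 did not. With a mean of at least 5 FPKM, 0 members were counted as higher in diploid NPCs against either ESC library, since TFAP2B was filtered out. At 8-fold the counts of higher members were also 0, and 1 was lower in NPCs than in diploid ESCs and 0 than in haploid ESCs. The share of all genes was not computed at 8-fold or with a mean of at least 5 FPKM, so these counts cannot be set beside it. Between NPCs and haploid ESCs, 2 members were lower at 2-fold, beside 23.9% of genes that passed the filter, and 2 with 0.1 FPKM added, beside 12.5%, TFAP2C passing at -2.03. With no filter, in alternatives chosen after seeing the data, 2 were higher, TFAP2B and GATA2, and 2 were lower, both with 0.1 FPKM added, beside 15.4% and 9.96% of all genes, and at 2-fold, beside 17.9% and 15.3%. Haploid against diploid ESCs gave 0 in both directions under every alternative. Rescaling to a sum of 1000000 shifted log2 ratios by a median of -0.08 in NPCs and 0.20 in haploid ESCs, both against diploid ESCs. In NPCs against haploid ESCs the median shift was -0.28, and TFAP2A went to -0.01 on the log2 scale, compared with 0.04 as deposited. These median shifts were taken over the genes averaging 1 FPKM or more. No member or list median past 4-fold changed sign. Of the recomputed list medians, 161 stayed on the same side of 4-fold, 14 moved past it in the same direction and 5 changed sign, of which the GATA list in NPCs against haploid ESCs also passed 4-fold, at -2.31 over genes with a mean of 5 FPKM or more, compared with 0.17; the 14 came from adding 0.1 FPKM or from a mean of at least 5 FPKM, which leaves few genes per list.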

Other observations

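Other lists that touch the members also went both ways. Of 14 measured germ cell genes, listed because TFAP2C acts in primordial germ cells, 6 were at least 4-fold lower in diploid NPCs than in diploid ESCs and 1 higher, the median log2 ratio being -1.35; several of them are pluripotency genes. The higher one, NANOS3, an RNA binding protein of germ cells, stood at 18.4 FPKM in diploid NPCs, 0.04 FPKM in haploid ESCs and 0.37 FPKM in diploid ESCs. DDX4 and DAZL, which mark later germ cells, did not exceed 0.31 FPKM in any library. Between haploid and diploid ESCs 4 of the 14 were at least 4-fold lower in haploid cells, PRDM1, SOX17, KIT and UTF1, with a median of -0.44. PRDM1, a repressor that acts with TFAP2C in germ cells, stood at 1.32 FPKM in diploid NPCs, 0.72 FPKM in haploid ESCs and 6.63 FPKM in diploid ESCs.

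Of 15 measured mesoderm and heart genes, listed because ISL1 and HAND1 also act there, 2 were at least 4-fold lower in diploid NPCs than in diploid ESCs, EOMES and TNNT2, and none was higher, with a median of -0.24. EOMES was listed at 0 in diploid NPCs and stood at 15.6 FPKM in haploid ESCs and 27.4 FPKM in diploid ESCs. None of the 15 reached 4-fold between haploid and diploid ESCs, where the median was -0.17. Of 12 measured placode genes, 1 was at least 4-fold higher in NPCs, PAX8, and 2 were lower, with a median of -0.04. PAX8 stood at 63.0 FPKM in diploid NPCs, 0.1 FPKM in haploid ESCs and 0.05 FPKM in diploid ESCs. None of the 12 reached 4-fold between haploid and diploid ESCs, where the median was 0.02.

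The 7 genes used as markers of fibroblasts, which can be feeder cells, summed to 113 FPKM in diploid NPCs, 691 FPKM in haploid ESCs and 467 FPKM in diploid ESCs. Of the 7, all stood at 1 FPKM or more in diploid NPCs, 6 in haploid ESCs and 5 in diploid ESCs. COL1A1, COL1A2 and THY1 made up most of both ESC sums. The genes did not share an order: LUM was highest in diploid NPCs, at 2.17 FPKM, beside 0.26 FPKM in haploid ESCs and 0.98 FPKM in diploid ESCs. DCN stood at 1.13, 1.6 and 0.87 FPKM in the same order. The part of fibroblasts in the levels of the 9 genes was not tested.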
